A study of Mus musculus with 15 samples.

Results

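The genes described here encode the TAM receptor tyrosine kinases Tyro3, Axl and Mertk, their ligands Gas6 and Pros1, and proteins of the glial engulfment pathways that use Megf10 or integrins (Megf10, Gulp1, Mfge8, Itgb5 and Abca1). They are 10 of the 54736 genes of the deposited table, and 10 of the 18656 genes that reached a mean of at least 1 TPM (an abundance scaled to transcript length and to the library's sum) and were tested. The list was written by pathway, and its members were chosen by name with earlier KO and WT TPM values of these libraries known. Axl and Mertk were also selected on their place in rows 1 and 2 of the deposited table, the opening pair of an 11-gene block that stands ahead of the ID-sorted rows. Their deletion against wild-type values are therefore given as a description, with no test, and the other 8 genes are read from a fit across all tested genes.

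Total RNA of medial prefrontal cortex micropunches was sequenced on a BGISEQ-500, and all mice were C57BL/6 males between 8 and 10 weeks old. The Df(h15q13)/+ group, titled KO, carries a heterozygous deletion of the chromosome 7 segment that matches the human 15q13 microdeletion, so the deleted genes keep a copy and the title KO does not mean a null. The other group, titled WT, holds wild-type littermates. The titles give 8 KO and 7 WT libraries, while the design text of the series gives these numbers the other way round, and the titles were used.

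The mean log2(TPM + 1) of the 5 deleted genes Chrna7, Otud7a, Klf13, Mtmr10 and Fan1 lay between 2.69 and 3.06 in KO libraries and between 3.81 and 4.05 in WT libraries, so the ranges were apart as the titles have them (exact two-sided permutation p = 0.000155, the smallest that 6435 splits can give). Each library summed to between 999789 and 999899 TPM and 18375 to 18748 genes per library reached 1 TPM. TPM keeps no read depth, so the depth behind a value is unknown and the spread between libraries is the only measure of precision. The labels name no individual animals, so p-values measure the spread between libraries. KO 1 and KO 8 stood apart in oligodendrocyte markers, with mean log2(TPM + 1) values of 5.14 and 5.59, while the remaining KO libraries ran from 3.77 to 4.11 and the WT libraries from 4.18 to 4.55.

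TAM receptors are receptor tyrosine kinases that do not bind the dying cell or synapse directly. Gas6 and Pros1 bridge them to phosphatidylserine, a lipid that moves to the outer membrane leaflet of dying cells and of some synapses. In brain, Mertk and Megf10 on astrocytes take up synaptic material, Mertk and Axl act in microglial clearance of dead cells, and Tyro3 is mainly a neuronal receptor. Mfge8 forms a similar bridge to integrins that contain the β5 chain, Gulp1 is an adaptor of the Megf10 route and Abca1 exports the lipid that engulfed material brings in.

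The 3 receptor genes are shown by the 250 bases before each RefSeq transcription start, because they are the receptors that the rest of the account starts from. The sequences are RefSeq's on GRCm38.p6, written 5′ to 3′ on the gene's strand, and capitals mark the GC box (GGGCGG, searched on both strands), the binding motif of Sp1-like factors.
Axl, chr7:25788734-25788983, minus strand: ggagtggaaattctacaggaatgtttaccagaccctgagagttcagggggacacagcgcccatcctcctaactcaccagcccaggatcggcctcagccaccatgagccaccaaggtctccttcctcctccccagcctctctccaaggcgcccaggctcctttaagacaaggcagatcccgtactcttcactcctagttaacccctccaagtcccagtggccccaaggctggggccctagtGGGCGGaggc
Mertk, chr2:128698665-128698914, plus strand: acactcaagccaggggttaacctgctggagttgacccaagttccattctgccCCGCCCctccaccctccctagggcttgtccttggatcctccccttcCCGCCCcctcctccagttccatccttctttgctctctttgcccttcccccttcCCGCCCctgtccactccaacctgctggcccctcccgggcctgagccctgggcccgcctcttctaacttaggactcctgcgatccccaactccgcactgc
Tyro3, chr2:119799264-119799513, plus strand: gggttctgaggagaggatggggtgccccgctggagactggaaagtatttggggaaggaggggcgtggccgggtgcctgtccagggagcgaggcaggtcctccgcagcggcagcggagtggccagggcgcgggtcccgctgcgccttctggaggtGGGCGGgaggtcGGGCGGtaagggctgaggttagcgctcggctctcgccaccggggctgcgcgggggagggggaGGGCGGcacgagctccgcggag
Axl held 1 GC box, Mertk 3 and Tyro3 3. The GC content of the windows was 60% for Axl, 63.6% for Mertk and 73.2% for Tyro3. A GC box was present in the windows of all 9 members that the promoter table holds, and in 32.7% of the 32851 windows of that table. The TATA box (TATAAA, both strands) was found in Abca1 alone among the 9, against 12.4% of all windows, and the STAT motif (TTCNNNGAA, which reads the same on both strands) in Pros1 alone, against 7.02%. The CCAAT box (CCAAT), the AP-1 motif (TGANTCA) and the nuclear receptor half-site (AGGTCA), each searched on both strands, were found in none of the 9 windows, against 33.85%, 6.75% and 14.0% of all windows. These are letter matches in short windows and say nothing of binding. The annotated gene of Tyro3 in GENCODE M21 begins upstream of the RefSeq start, so this window is not its only possible promoter. No sequence is printed for Megf10.

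In the prefrontal cortex the listed genes covered a wide span of TPM levels, in the same order of means in both groups. Tyro3 was the most abundant, at 156 ± 28.2 TPM in KO (SD, n = 8) and 165 ± 29.2 TPM in WT (SD, n = 7), followed by Mfge8 at 135 ± 29.6 and 129 ± 9.12 TPM. Gas6 came next at 43.7 ± 5.93 TPM in KO and 44.7 ± 3.95 TPM in WT. The group means of Axl, Mertk and Itgb5 lay between 17.5 and 30.0 TPM and those of Pros1, Abca1 and Megf10 between 3.83 and 7.15 TPM, and Gulp1 was lowest at 1.67 ± 0.270 TPM in KO and 1.84 ± 0.432 TPM in WT. In both groups the ranges of neighbours overlapped for Tyro3 and Mfge8, for Axl and Mertk, for Mertk and Itgb5, for Pros1 and Abca1 and for Abca1 and Megf10. Within a library the order could still hold: Abca1 was above Megf10 in 8 of 8 KO and 7 of 7 WT libraries, Mertk above Itgb5 in 6 KO and 7 WT libraries, and Tyro3 above Mfge8 in 6 KO and 7 WT libraries. Axl was above Mertk in 5 KO and 4 WT libraries, and Pros1 above Abca1 in 4 KO and 4 WT libraries, so the order of these did not hold from library to library. The ranges were apart between Mfge8 and Gas6, Gas6 and Axl, Itgb5 and Pros1, and Megf10 and Gulp1.

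**Figure D1:**
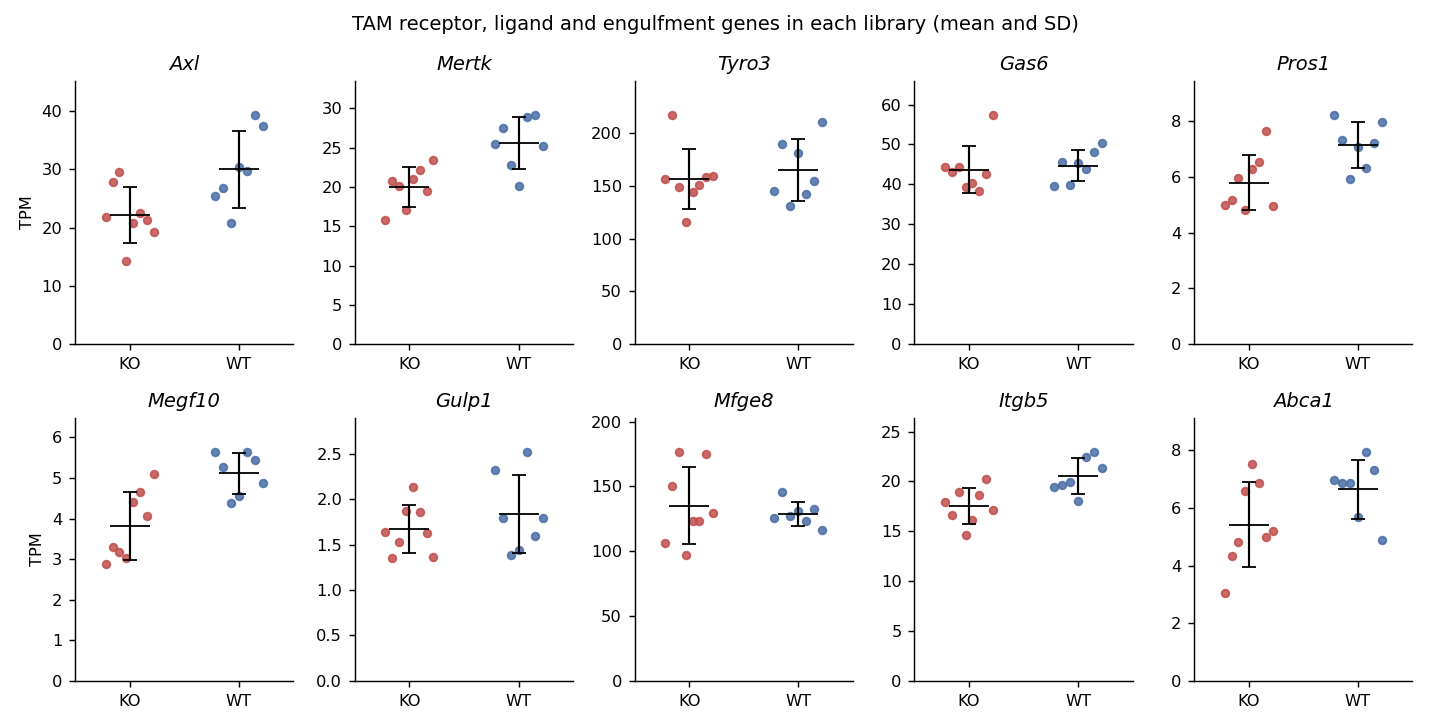
TPM of the 10 genes (y axis, from 0) in each of 8 KO libraries (red) and 7 WT libraries (blue), with the group mean and SD in black. The KO and WT ranges overlap for all 10 genes. The KO points of Megf10 and Itgb5 lie below the lowest WT point in 5 of 8 libraries, and those of Mfge8 lie on both sides of the WT points.

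Axl and Mertk, the receptors at the head of the table, had lower mean levels in KO cortex, with overlapping groups. Axl (ENSMUSG00000002602, chromosome 7, 25757273 to 25788705, mm10), a receptor for Gas6, was lowest at 14.3, median 21.6 and highest at 29.5 TPM in KO libraries, against 20.8, 29.7 and 39.3 TPM in WT libraries. Of the 8 KO libraries 3 lay below the lowest WT library, and 4 of 7 WT libraries lay above the highest KO library. Mertk (ENSMUSG00000014361, chromosome 2, 128698956 to 128802894), a receptor for both Gas6 and Pros1, was lowest at 15.8, median 20.4 and highest at 23.4 TPM in KO libraries, against 20.1, 25.5 and 29.1 TPM in WT libraries. Each of the 8 KO libraries was under the WT mean of Mertk, and 5 WT libraries lay above the highest KO library. On the log2(TPM + 1) scale, which understates the change of low genes, the difference was -0.42 ± 0.15 (SE) for Axl and -0.34 ± 0.09 for Mertk, or 74.0% and 78.1% of the WT mean TPM. The annotated antisense transcript Gm14011 overlaps Mertk, and no strand setting of the counting is given, so their reads cannot be told apart with certainty. The snoRNA gene Gm23172 also overlaps Mertk, on the same strand.

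Tyro3 (ENSMUSG00000027298, chromosome 2, 119797733 to 119818104) had close group means. It ranged over 115, 154 and 217 TPM (lowest, median, highest) in KO libraries, against 131, 154.5 and 211 TPM in WT libraries, and the WT range lay inside the KO range. The Tyro3 log2 fold change was -0.08 ± 0.12 (SE; limma, Benjamini-Hochberg adjusted p = 0.781). It was -0.15 without KO 2, the highest library, -0.02 without KO 4, the lowest, and also -0.02 without WT 7. Whether Tyro3 differed in its change from Axl or Mertk was not tested.

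The makeup of the receptor pool is a description, because it contains Axl and Mertk. Tyro3 held 78.6 ± 2.08% of the summed receptor TPM in KO libraries (SD, n = 8) and 74.6 ± 3.44% in WT libraries (SD, n = 7). The Tyro3 share ran from 75.0% to 81.7% in KO and from 69.3% to 78.2% in WT. Axl held 11.2 ± 1.64% in KO and 13.6 ± 2.15% in WT, and Mertk held 10.2 ± 1.55% in KO and 11.8 ± 2.15% in WT. The ratio of Axl to Mertk was 1.12 ± 0.250 in KO and 1.18 ± 0.259 in WT, a difference smaller than either SD.

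**Figure D2:**
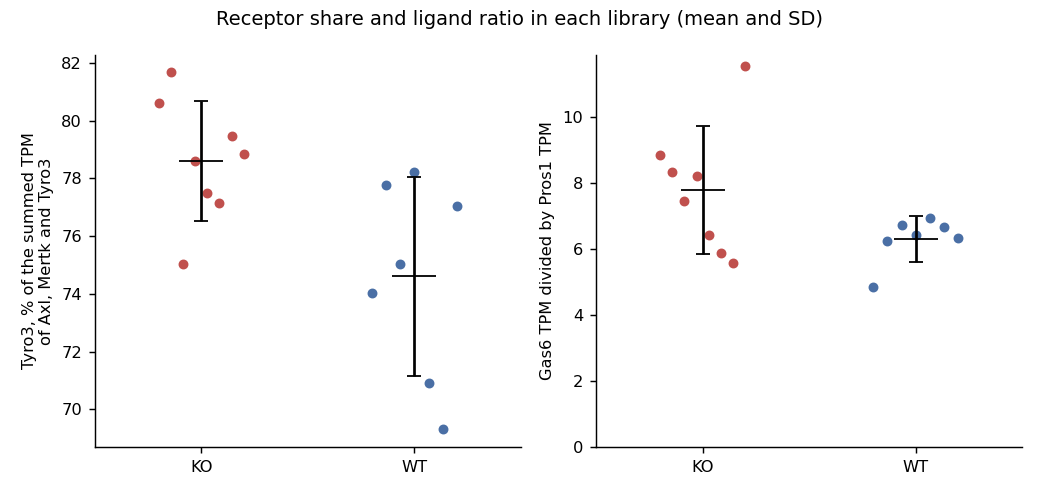
Share of Tyro3 in the summed TPM of the 3 TAM receptors (left, %) and Gas6 TPM divided by Pros1 TPM (right), per library, with mean and SD in black, for 8 KO (red) and 7 WT (blue) libraries. The Tyro3 share averages 78.6% in KO and 74.6% in WT, and the ligand ratio is widest in KO, up to 11.5. The left axis does not start at 0.

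Of the ligands, Pros1 had a mean of 81.1% of WT in KO and Gas6 one of 97.8%. Pros1 (ENSMUSG00000022912, chromosome 16, 62854307 to 62929346), the anticoagulant protein S that also activates Tyro3 and Mertk, was at 4.81, 5.58 and 7.66 TPM (lowest, median, highest) in KO libraries, against 5.94, 7.22 and 8.22 TPM in WT libraries. The groups overlapped in part, with 4 KO libraries below the lowest WT library and 2 WT libraries above the highest KO library. Pros1 did not pass, at -0.27 ± 0.10 on the log2 scale (SE; limma adjusted p = 0.339). Gas6 (ENSMUSG00000031451, chromosome 8, 13465374 to 13494490), a ligand of all 3 receptors, was at 38.3, 42.9 and 57.3 TPM in KO libraries, against 39.7, 45.3 and 50.5 TPM in WT libraries. The highest Gas6 value was that of KO 8, and the next KO library was at 44.4 TPM, inside the WT range. The Gas6 log2 fold change was -0.04 ± 0.08 (SE; limma adjusted p = 0.854), and -0.09 without KO 8. The protein-coding gene Tmem255b on the other strand overlaps it. The ratio of Gas6 to Pros1 was 7.77 ± 1.94 in KO libraries (SD, n = 8) and 6.30 ± 0.694 in WT libraries (SD, n = 7).

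Of the Megf10 route, the receptor gene and the adaptor gene both had lower means in KO, at 74.8% and 90.9% of the WT mean TPM. Megf10 (ENSMUSG00000024593, chromosome 18, 57133090 to 57297467), an EGF-repeat engulfment receptor of astrocytes, was at 2.88, 3.68 and 5.11 TPM (lowest, median, highest) in KO libraries, against 4.37, 5.28 and 5.64 TPM in WT libraries. In 5 of 8 KO libraries Megf10 lay below the lowest WT library, and the highest KO library was KO 8. The log2 fold change was -0.36 ± 0.11 (SE; limma adjusted p = 0.306). Gulp1 (ENSMUSG00000056870, chromosome 1, 44551511 to 44796838), a PTB-domain adaptor that binds the Megf10 tail in the homologous worm pathway, was at 1.35, 1.63 and 2.13 TPM in KO libraries, against 1.39, 1.80 and 2.52 TPM in WT libraries. It was the lowest listed gene, close to the filter of 1 TPM in both groups, and its groups overlapped (log2 fold change -0.08 ± 0.10, SE; limma adjusted p = 0.741). The annotated genes Gm37626, Gm38110, Gm16102 (a processed pseudogene) and 4930521E06Rik (antisense) overlap Gulp1, so its read assignment is uncertain.

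Of the integrin route, the receptor subunit had a lower mean in KO and the bridging protein had the 1 higher mean of the list. Itgb5 (ENSMUSG00000022817, chromosome 16, 33829665 to 33949338), the integrin β5 chain, was at 14.6, 17.5 and 20.3 TPM (lowest, median, highest) in KO libraries, against 18.02, 19.95 and 22.9 TPM in WT libraries. Each of the 8 KO libraries was under the WT mean of Itgb5 and 5 were below the lowest WT library. Its log2 fold change was -0.22 ± 0.07 (SE; limma adjusted p = 0.33). Mfge8 (ENSMUSG00000030605, chromosome 7, 79133768 to 79149060), the secreted bridge from phosphatidylserine to integrins, was at 96.8, 127 and 177 TPM in KO libraries, against 116, 127 and 145 TPM in WT libraries. The KO libraries spread on both sides of WT, 2 below the lowest and 3 above the highest WT library, with a coefficient of variation of 21.9% in KO and 7.08% in WT. The Mfge8 log2 fold change, 0.04 ± 0.12 (SE; limma adjusted p = 0.883), turned negative without KO 3 (-0.02) or without KO 7 (-0.01).

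Abca1 (ENSMUSG00000015243, chromosome 4, 53030787 to 53159895), the cholesterol and phospholipid exporter, was at 3.04, 5.09 and 7.53 TPM (lowest, median, highest) in KO libraries, against 4.89, 6.88 and 7.95 TPM in WT libraries. Its KO spread was the widest of the list relative to the mean, with a coefficient of variation of 27.4% in KO and 15.5% in WT, and 3 KO libraries lay below the lowest WT library. The log2 fold change was -0.28 ± 0.14 (SE; limma adjusted p = 0.448), and -0.17 without KO 1 and KO 8.

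**Figure D3:**
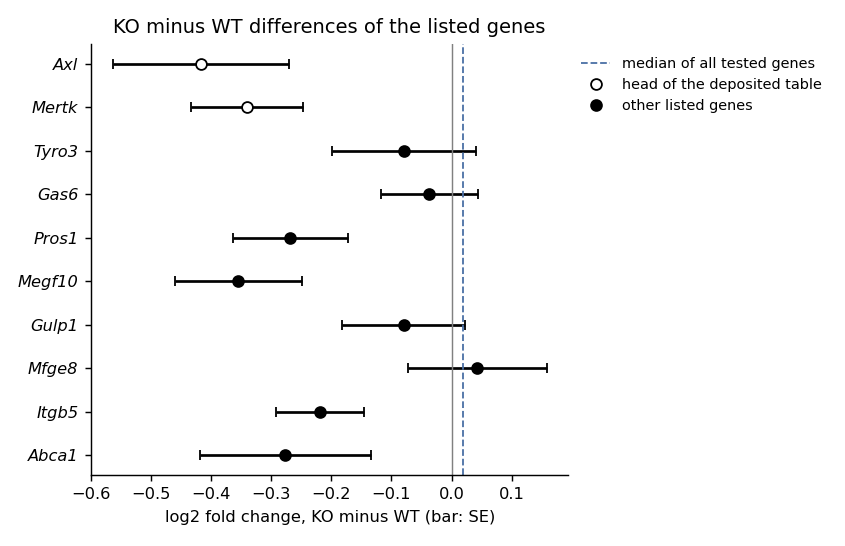
Log2 fold change, KO minus WT, of each listed gene on the log2(TPM + 1) scale (x axis, bar: SE), with the median of all 18656 tested genes as a dashed line at 0.02. Open circles are Axl and Mertk, which are a description. Axl, Megf10 and Mertk have the lowest values, and Mfge8 is the only listed gene above 0.

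Over the 8 genes other than Axl and Mertk, 0 passed the threshold after adjustment over all genes, where 0.0268% of all tested genes did. The genes that passed were the 5 deleted genes and no others. The tool was limma, and 3 of the 8 (Pros1, Megf10 and Itgb5) had an unadjusted p under 0.05 and were lower, where 6.21% of all tested genes were. None of the 8 was higher at that p, where 5.68% of all tested genes were. Of the 8 genes 7 had a negative log2 fold change, against 45.3% of all tested genes, and their median was -0.15 against 0.02 over all tested genes. With Axl and Mertk included, which were on the list for their place in the table, 9 of 10 were negative and the median was -0.24. Of the 8 genes, Itgb5 alone had every KO library under the WT mean on the log2 scale, as was the case for 3.66% of all tested genes. Mertk, given as a description, had every KO library under the WT mean as well. The KO and WT ranges overlapped for each of the 10 genes, and 0.0911% of all tested genes had KO ranges wholly below WT. These are counts and give no test of the list. All 10 members were chosen with earlier KO and WT values of these libraries known, so the shares beside them are a description only.

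Markers of cell types were summed in the same libraries. In the 11 marker lists 0 genes passed the adjusted limma threshold, where 0.0268% of all tested genes did, all of them deleted genes. For the counts of lower markers, 45.3% of all tested genes were lower in KO. The marker lists were chosen with earlier results of these data known, so their counts are a description. Of 26 astrocyte markers 23 had lower means in KO, with a median log2 fold change of -0.25 and a summed level of 2458 to 3158 TPM in KO libraries and 2841 to 3766 TPM in WT libraries. Of 18 endothelial markers 17 were lower, with a median of -0.45 and summed levels of 213 to 370 TPM in KO and 305 to 443 TPM in WT. All 12 mural markers were lower, with a median of -0.36 and summed levels of 125 to 212 TPM in KO and 172 to 230 TPM in WT. Microglia markers were lower in 15 of 20 cases, with a median of -0.15 and summed levels of 501 to 590 TPM in KO and 465 to 635 TPM in WT. All 5 tested genes of perivascular macrophages, of 9 on that list, were lower with a median of -0.36, and summed levels were 7.52 to 26.2 TPM in KO and 10.5 to 28.7 TPM in WT. Excitatory neuron markers were lower in 5 of 12 cases, with a median of 0.13 and summed levels of 2953 to 3271 TPM in KO and 2913 to 3206 TPM in WT. Their median sum was lower in KO, at 3023 TPM, than in WT, at 3131 TPM. Inhibitory neuron markers were lower in 11 of 13 cases with a median of -0.17, and summed to 1000.3 to 1488 TPM in KO and 1160 to 1308 TPM in WT. Oligodendrocyte markers were lower in 12 of 16 cases (median -0.05, sums of 389 to 1617 TPM in KO and 557 to 720 TPM in WT) and those of their precursors in 9 of 11 (median -0.22, 175 to 228 TPM in KO and 195 to 253 TPM in WT). The lowest medians were those of blood, at -0.64 with 5 of 5 lower and sums of 391 to 1448 TPM in KO and 799 to 2788 TPM in WT, and of meningeal fibroblasts, at -0.46 with 12 of 12 lower and sums of 54.9 to 229 TPM in KO and 105 to 299.9 TPM in WT. At an unadjusted limma p under 0.05, 15 astrocyte, 15 endothelial and 7 mural markers were lower, where 6.21% of all tested genes were. So were 4 microglia, 1 perivascular macrophage, 2 meningeal fibroblast, 0 oligodendrocyte, 5 precursor, 4 inhibitory neuron and 3 blood markers. Of the excitatory neuron markers 2 were lower and 4 higher. No other list had a higher marker at that p, where 5.68% of all tested genes were higher. No marker of these lists was at 0 in all libraries. Slco1c1 of the endothelial and Tmem100 of the precursor list stand in the same head block as Axl and Mertk. They were kept in these counts. The mean log2(TPM + 1) of a list lay below the lowest WT library in 7 KO libraries for endothelial and 7 for mural markers. It did so in 6 for oligodendrocyte, 3 for astrocyte, 0 for microglia and 0 for excitatory neuron markers. The part of these cell types in the values of the listed genes was not tested, and in tissue RNA fewer cells of a type and less RNA per cell cannot be told apart.

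Relations of the listed genes to the markers from library to library were taken once each group's mean was removed, a measure that does not use the KO minus WT difference. No test was made of whether one relation is stronger than another. In all, 105 relations were computed over the 15 libraries, 60 with the mean of 6 marker lists and 45 between pairs of listed genes, with permutation p-values (two-sided, 100000 resamples within groups) adjusted by Benjamini-Hochberg over the 105. Both measures of a relation come from the same library and share its TPM total and tissue makeup. By Pearson's r 6 relations passed and by Spearman's rho 0 did, with 0.155 as the lowest adjusted p of rho.

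Mertk and Megf10 followed the astrocyte markers. For Mertk, r was 0.86 (permutation p = 0.00031, adjusted 0.0163) and rho was 0.64 (permutation p = 0.0153, adjusted 0.16), and r was 0.73 without the farthest libraries, KO 1 and WT 4. For Megf10, r was 0.76 (permutation p = 0.0012, adjusted 0.0315) and rho was 0.67 (permutation p = 0.0124, adjusted 0.16), and r was 0.69 without KO 1 and WT 4. Megf10 had r = 0.51 with mural markers, short of the threshold (adjusted permutation p = 0.298), and 0.68 without KO 7 and WT 7. With excitatory neuron markers its r was -0.55 (adjusted permutation p = 0.253), and -0.45 without KO 4 and WT 1. Mertk and Megf10 also followed each other, with r = 0.78 (permutation p = 0.0002, adjusted 0.0163) and rho = 0.70 (permutation p = 0.00461, adjusted 0.155), and r was 0.68 without KO 1 and KO 8. With the group means taken again without these libraries, Mertk with Megf10 missed the threshold (adjusted permutation p = 0.063).

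Mertk further followed the microglia markers, with r = 0.74 (permutation p = 0.00273, adjusted 0.0478) and rho = 0.73 (permutation p = 0.00496, adjusted 0.155), and r was 0.71 without KO 3 and WT 4, but it missed the threshold without KO 1 and KO 8 (adjusted permutation p = 0.0742). Mertk had r = 0.60 with endothelial and 0.48 with mural markers, short of the threshold, and without the farthest libraries of each list these were 0.73 and 0.74, as high as with astrocyte markers. Itgb5 followed the endothelial markers, with r = 0.83 (permutation p = 0.00053, adjusted 0.0185) and rho = 0.76 (permutation p = 0.00264, adjusted 0.155), and r was 0.68 without KO 4 and KO 7. Itgb5 also had r = 0.66 with astrocyte and 0.64 with mural markers (both adjusted permutation p = 0.167), and without the farthest libraries of each list these were 0.75 and 0.50. Gas6 followed the oligodendrocyte markers, with r = 0.75 (permutation p = 0.00218, adjusted 0.0458) and rho = 0.61 (permutation p = 0.00592, adjusted 0.155). Without KO 1 and KO 8, the libraries highest in these markers, r for Gas6 was 0.54. It was 0.49 when the group means were taken again without them, with an adjusted permutation p of 0.341 for this second value. Without these libraries the relation kept a positive r but missed the threshold. Pros1 had r = 0.73 with the mural markers, short of the threshold (permutation p = 0.00403, adjusted 0.0604) and rho = 0.68 (permutation p = 0.0106, adjusted 0.16), and r was 0.52 without KO 7 and WT 7. With astrocyte markers Pros1 had r = 0.60, and 0.64 without KO 1 and WT 4. With endothelial markers Pros1 had r = 0.63, and 0.32 without KO 4 and KO 7. With excitatory neuron markers it had r = -0.62, and -0.49 without KO 4 and WT 1 (adjusted permutation p = 0.18 for each of these lists). Axl and Tyro3 passed with none of the lists. Tyro3 had r = 0.08 with astrocyte and 0.03 with excitatory neuron markers, and Axl had 0.43 with astrocyte and 0.48 with endothelial markers.

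**Figure D4:**
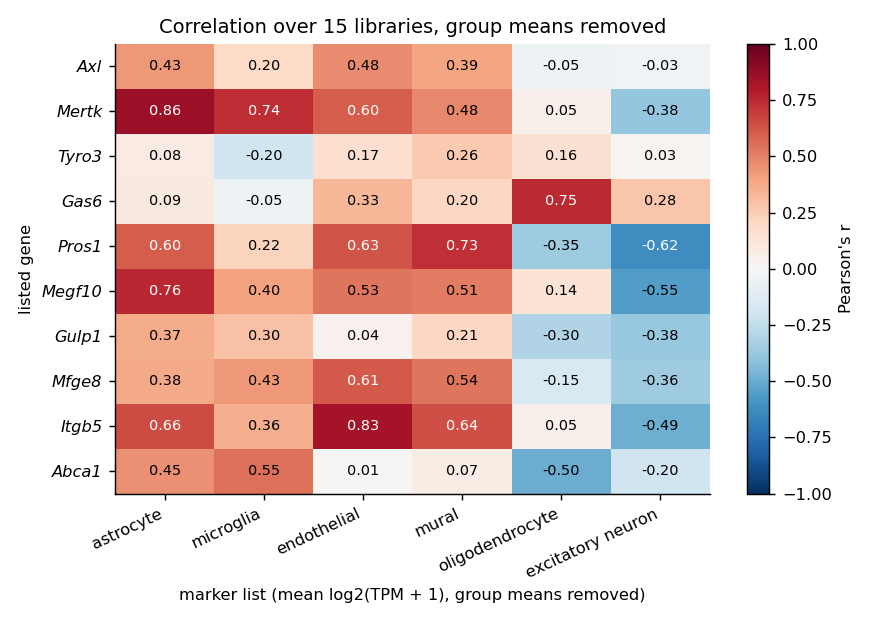
Pearson's r over 15 libraries between each listed gene (rows) and the mean of each marker list (columns), on log2(TPM + 1) with group means removed; red is positive and blue is negative. Mertk with astrocyte markers (0.86) and Itgb5 with endothelial markers (0.83) have the highest values, and the row of Tyro3 runs from -0.20 to 0.26.

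By the same measure, the 5 genes most like Mertk over the 15 libraries were Wipf1 (r = 0.93, rho = 0.88), Itpr2 (r = 0.93, rho = 0.90), Samd5 (r = 0.92, rho = 0.91), Slc1a2 (r = 0.91, rho = 0.87) and Lrrc26 (r = 0.90, rho = 0.87). Slc1a2 is the main astrocyte glutamate transporter gene and is itself on the astrocyte marker list. Its mean was 439 TPM in KO and 557 TPM in WT. Its log2 fold change of -0.35 was the lowest of these 5, with the others from -0.28 to -0.12. The 5 most like Axl were Gm24613 (r = 0.87, rho = 0.83), Brf1 (r = 0.85, rho = 0.83), Gm27194 (r = 0.84, rho = 0.76), Gm5913 (r = 0.83, rho = 0.77) and Gm27627 (r = 0.83, rho = 0.79), of which Brf1 encodes a subunit of the RNA polymerase III initiation factor. They were selected for these values among all tested genes, so no p is given.

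The rest of the engulfment machinery was read from 8 lists of 204 genes, none of them a listed gene and 14 also among the cell type markers. Of 176 tested genes 111 had lower means in KO, which is 63.1% against the 45.3% of all tested genes. By limma, 23 genes were lower (13.1%, against 6.21% of all tested genes) and 6 higher (3.41%, against 5.68%) with an unadjusted p under 0.05, and 0 passed after adjustment over all genes. These lists too were chosen with earlier results of these data known, so their counts are a description. The count of lower genes in each list stands beside the same 45.3%. The 3 genes of lowest p are named for each list.

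Among engulfment receptors 19 of 25 tested genes had lower means, with a median of -0.15. An unadjusted p under 0.05 was found for 8 of these and for none of the others. Of all tested genes 6.21% were lower at that p. Itgb1, the integrin β1 chain, averaged 22.5 ± 2.78 TPM in KO and 28.7 ± 2.92 TPM in WT (log2 fold change -0.34 ± 0.08, SE; limma adjusted p = 0.258), with 6 of 8 KO libraries below the lowest WT library. Cd93, an endothelial and myeloid surface receptor, was at 2.81 ± 0.516 TPM in KO and 4.14 ± 0.878 TPM in WT (limma adjusted p = 0.271). Pear1, a relative of Megf10 in vessels and platelets, was at 1.94 ± 1.10 TPM in KO and 3.63 ± 0.984 TPM in WT (log2 fold change -0.71 ± 0.20; adjusted p = 0.291).

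Among bridging ligands and related secreted proteins 11 of 12 had lower means, with a median of -0.12. For 2 of these the unadjusted p was under 0.05, where 6.21% of all tested genes were lower at that p. The list's lowest p belonged to Sparcl1, an astrocyte-secreted matrix protein that is not itself a phosphatidylserine ligand, at 1061 ± 81.0 TPM in KO and 1203 ± 55.8 TPM in WT (log2 fold change -0.18 ± 0.06; limma adjusted p = 0.311). The complement genes C4b and C1qc had log2 fold changes of -0.68 ± 0.27 and -0.15 ± 0.08 (adjusted p = 0.377 and 0.45), and C4b has a near-identical neighbour, C4a, with which its reads may be shared.

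Among adaptors and Rac pathway genes 20 of 34 had lower means, with a median of -0.03. For 4 of these the unadjusted p was under 0.05, where 6.21% of all tested genes were lower at that p. Dock1, the Rac activator that acts below Megf10, Mertk and integrins, averaged 5.99 ± 1.003 TPM in KO and 8.89 ± 1.54 TPM in WT (log2 fold change -0.50 ± 0.11; limma adjusted p = 0.241), and 6 of 8 KO libraries lay below the lowest WT library. The kinase gene Lyn was at -0.42 ± 0.13 (adjusted p = 0.311), with 7 of 8 KO libraries below the lowest WT library, and Nckap1l, an actin regulator of blood-derived cells and microglia, was at -0.23 ± 0.09 (adjusted p = 0.37).

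Phagosome maturation genes and inhibitory surface signals had positive medians. Of 33 phagosome genes 12 were lower, with 2 lower and 2 higher at an unadjusted p under 0.05, close to the shares over all tested genes, and a median of 0.06. The protease gene Ctss was at -0.17 ± 0.06, the autophagy gene Map1lc3a at 0.23 ± 0.08 and Rab7, the GTPase of late endosomes, at 0.46 ± 0.18 (limma adjusted p = 0.339, 0.356 and 0.377). Of 12 tested genes of the signals that restrain engulfment 5 were lower, and the median was 0.07. At an unadjusted p under 0.05 2 were higher, where 5.68% of all tested genes were. Cd59a, an inhibitor of the complement membrane attack complex, was at 13.3, 13.5 and 17.5 TPM (lowest, median, highest) in KO libraries, against 9.20, 11.4 and 12.1 TPM in WT libraries. Its ranges did not overlap, as was true in this direction of 0.0429% of all tested genes, but it did not pass (log2 fold change 0.35 ± 0.08; limma adjusted p = 0.241), and the close copy Cd59b makes its read assignment uncertain. Cd200 and Cd24a, which encode surface proteins of neurons, were at 0.27 ± 0.12 and 0.32 ± 0.16 (adjusted p = 0.39 and 0.441).

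Sterol efflux and LXR target genes, the setting of Abca1, were lower in 16 of 23 cases with a median of -0.07. Only 1 of them was lower at an unadjusted p under 0.05, where 6.21% of all tested genes were. That gene was Srebf1, a master regulator of lipid synthesis, at 25.2 ± 3.01 TPM in KO and 31.0 ± 4.03 TPM in WT (log2 fold change -0.29 ± 0.09; limma adjusted p = 0.311), followed by Lcat at -0.29 ± 0.14 and Scd1 at -0.24 ± 0.12 (adjusted p = 0.437 and 0.439). Lipid flippases and scramblases, not all of which act on phosphatidylserine, were lower in 14 of 19 cases. At an unadjusted p under 0.05 2 were lower and 2 higher, where 6.21% and 5.68% of all tested genes were. The list median was -0.06. Atp10a, a P4-ATPase, was at 3.87 ± 0.507 TPM in KO and 7.09 ± 1.79 TPM in WT (log2 fold change -0.70 ± 0.13; limma adjusted p = 0.135), Atp11b was at 0.21 ± 0.09 and the scramblase gene Xkr8 at 0.34 ± 0.14 (adjusted p = 0.379 and 0.388). Without WT 4 Atp10a passed (adjusted p = 0.0099).

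Among genes listed here as regulators of TAM signalling, a choice that was not tested, 14 of 18 were lower. Of these 4 had an unadjusted p under 0.05, where 6.21% of all tested genes were lower at that p. The list median was -0.04. Adam17, a protease that sheds the outer part of Mertk and Axl, averaged 6.92 ± 0.875 TPM in KO and 8.76 ± 1.41 TPM in WT (log2 fold change -0.30 ± 0.10; limma adjusted p = 0.326). Ptprz1, a receptor phosphatase gene of glia, was at -0.38 ± 0.11 and Tns2, a tensin gene, at -0.46 ± 0.16 (adjusted p = 0.291 and 0.338). Ptprz1 is also on the list of oligodendrocyte precursor markers.

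**Figure D5:**
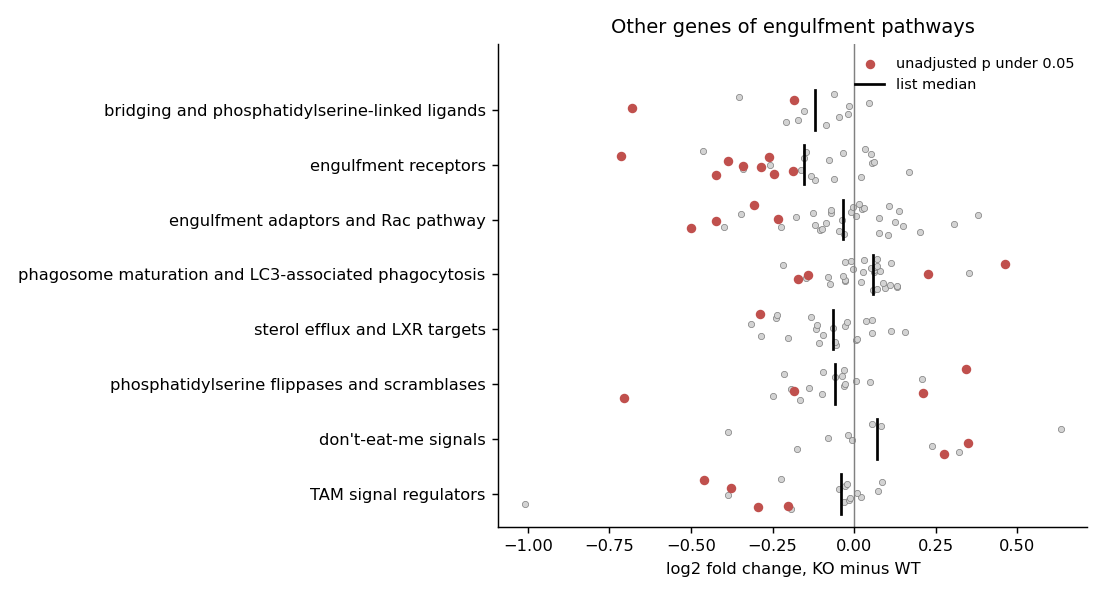
Log2 fold change, KO minus WT (x axis), of each tested gene in 8 lists of engulfment pathway genes (rows); red points have an unadjusted limma p under 0.05 and black bars are list medians. Engulfment receptors have the lowest median (-0.15), and phagosome genes and don't-eat-me signals have medians above 0 (0.06 and 0.07).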

How the data were processed

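The authors deposited 1 table of TPM values, 1 column per library. The submitters' processing notes name Trimmomatic, HISAT2, StringTie and the build mm10, with versions, strand setting and annotation not given in the sources used here. Values are scaled to transcript length and to each library's sum, so a rise in abundant transcripts lowers all other values. Of 54838 rows 54723 matched a symbol by gene ID, coordinates are those of GENCODE M21, rows with the same symbol were added up, and 2 columns with no header were not used. The 18656 genes whose mean reached 1 TPM were analysed as log2(TPM + 1) in R 4.3.3 with limma 3.58.1 (intensity trend, two-sided, KO minus WT, all 15 libraries), with Benjamini-Hochberg adjustment over all tested genes at 0.05. The test was also run on simulated data with known changes.

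The members and gene lists were chosen with earlier results of these data known. The text names the listed genes, the 5 deleted genes, the 3 genes of lowest p of each pathway list and the 5 genes most like Axl and Mertk; the extremes of each marker list, which the rule also covers, are not printed. Slc1a2 was given levels after its values were seen, and Slco1c1 and Tmem100 are named for their place in the deposited table. Alternatives covered pseudocounts of 0.5 and 0.1, filters, scalings, weights, variance priors, the replicate number, each library left out and KO 1 with KO 8 left out. Those for correlations were chosen after seeing the data.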

Additional observations from a re-analysis of the deposited data

Results flagged for a closer look

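In each group the highest and the lowest library of every listed gene were compared with their nearest neighbour, in 20 groups of values. Tyro3 in KO 2, at 217 TPM, stood apart from the other KO libraries, of which the next was at 159 TPM. Gas6 in KO 8, at 57.3 TPM, stood apart from the next KO library at 44.4 TPM. Chance marks about 1 in 20 such groups.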

How the results depend on the processing

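None of the 8 tested members passed the threshold in any fit, Axl and Mertk were given no test, and all listed genes but Mfge8 kept a negative sign in every fit that held them. The Mfge8 log2 fold change turned negative without KO replicate 3 (-0.0162) and without KO replicate 7 (-0.0143), with -0.02 to 0.11 over the libraries left out in turn. Over the same fits Tyro3 ran from -0.15 (without KO 2) to -0.02 (without WT 7), Gas6 from -0.09 (without KO 8) to -0.0075 (without WT 7), Gulp1 from -0.12 (without WT 3) to -0.03 (without WT 5), Megf10 ran from -0.41 to -0.31, Pros1 from -0.32 to -0.24, Itgb5 from -0.25 to -0.19, Abca1 from -0.34 to -0.19 (without KO 1), Axl from -0.50 to -0.34 and Mertk from -0.40 to -0.30. The count of genes past the threshold was 5 to 6, that of listed genes lower 9 to 10 and that of pathway genes past it 0 to 1, which was Atp10a without WT 4 (-0.80, adjusted p = 0.0099).

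With the replicate number as a block, which also takes KO 8 out of the contrast because no WT library has its number, 8 genes passed. None was a listed gene, and the deleted gene Fan1 was no longer among them (Megf10 -0.41, adjusted p = 0.142). The numbers were not taken as pairs: same-numbered libraries correlated at -0.0425 to 0.122, 1 of 7 pairs was over 0.1, and 2 KO and 0 WT libraries matched their own number best. The cause was not tested. Gulp1 and Megf10, with means under 5 TPM, have no value with that filter, under which 4 genes passed.

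Without KO 1 and KO 8, Mertk with Megf10 (r = 0.68, adjusted permutation p = 0.063) and Mertk with microglia markers (r = 0.76, adjusted 0.0742) missed the threshold, and Gas6 with oligodendrocyte markers did so as well (r = 0.49, adjusted 0.341), and also with median-of-ratios scaling (r = 0.77, adjusted 0.116). By r 6 relations passed and by rho 0, against 9 and 6 with median-of-ratios scaling, and 25 and 15 with group means kept. Without KO 1 and KO 8 the counts were 5 and 0, and the 5 include relations that are not among the 6. The mean of the deleted genes was not rerun with the block, weights, variance priors, quantile scaling or filters.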
